A study of Homo sapiens with 12 samples.

Results

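The 7 human histone genes HIST2H2BE, HIST2H2AC, HIST2H2AB, HIST3H3, HIST3H2A, HIST3H2BB and HIST4H4 lie outside the large histone gene cluster of chromosome 6 and were examined at 5 sites of the NCBI36 genome. HIST2H2BE and HIST2H2AC were read at 1 position of chromosome 1 (148125000), HIST2H2AB at 148126090, HIST3H3 at 226679649, HIST3H2A and HIST3H2BB at 226712419, and HIST4H4 at position 14815332 of chromosome 12. A region of a library was counted at a site when its summit, the base with most reads, lay within 1.5 kb of the position. Of 1636159 listed regions in 8 libraries, 42 fell at these sites and 9 of them were significant. The rule that gives the positions names genes and uses no measured value, and how the positions were derived is not given.

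The regions came from ChIP-Seq, in which DNA bound by a factor is recovered with an antibody and sequenced, so that bound stretches collect more sequences than in a precipitation with unspecific IgG. Antibodies (5 µg) against CASP8AP2, NPAT, HINFP or E2F1 were used on U2OS cells, an osteosarcoma line, and on hTERT-RPE1 cells, an epithelial line immortalized with hTERT (telomerase). Each factor had 1 library per line and no other treatment, so no spread between replicates can be given. Rabbit IgG of the same line was the control of CASP8AP2, NPAT and E2F1, which therefore share it, and goat IgG was the control of HINFP.

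Replication-dependent histone genes are transcribed in S phase to package newly made DNA, and most of them stand in clusters in which H2A and H2B genes are often paired head to head around a shared promoter. NPAT, a substrate of cyclin E-Cdk2, and CASP8AP2, also known as FLASH, gather at these genes in nuclear histone locus bodies and are needed for their transcription and the processing of their mRNAs. HINFP is a zinc finger factor of histone H4 promoters, and E2F1 activates genes of the G1 to S transition. HIST3H3 encodes an H3 protein known from testis, which sets it apart from the other genes here.

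The sequence before the start of transcription is shown for 1 gene of each site, to show which promoter letters these genes have in common. All 7 genes were matched by their older symbols in a RefSeq table of GRCh38.p14, a later build than that of the regions, so that no region was placed on these bases. Each line gives the 250 bases before the start, 5′ to 3′ on the strand of the gene. Capitals mark the letters of 4 motifs on either strand. The TATA box was searched as TATAAA. The box bound by NF-Y was searched as CCAAT, and the octamer bound by Oct-1 as ATTTGCAT. ACGTCCG and GTCCGC are overlapping stretches of the HINFP motif, and GTCCGC was added after the sequences had been seen.
HIST2H2BE, minus strand, GRCh38.p14 chr1:149886683-149886932: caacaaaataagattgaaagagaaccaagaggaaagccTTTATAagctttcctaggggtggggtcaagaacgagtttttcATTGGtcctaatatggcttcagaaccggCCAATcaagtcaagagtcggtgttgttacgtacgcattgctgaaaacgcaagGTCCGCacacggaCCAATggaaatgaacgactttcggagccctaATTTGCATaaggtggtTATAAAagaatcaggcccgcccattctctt
HIST2H2AB, minus strand, GRCh38.p14 chr1:149887966-149888215: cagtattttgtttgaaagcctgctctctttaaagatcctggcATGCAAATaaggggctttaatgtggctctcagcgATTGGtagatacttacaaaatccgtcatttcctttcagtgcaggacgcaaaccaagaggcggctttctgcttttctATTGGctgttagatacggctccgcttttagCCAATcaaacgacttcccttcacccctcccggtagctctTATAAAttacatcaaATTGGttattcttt
HIST3H3, minus strand, GRCh38.p14 chr1:228425361-228425610: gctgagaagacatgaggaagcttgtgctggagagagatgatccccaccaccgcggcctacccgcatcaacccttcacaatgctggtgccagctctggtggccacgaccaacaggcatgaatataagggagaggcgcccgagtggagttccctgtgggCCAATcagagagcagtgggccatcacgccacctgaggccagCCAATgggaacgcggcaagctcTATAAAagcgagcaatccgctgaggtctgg
HIST3H2A, minus strand, GRCh38.p14 chr1:228457874-228458123: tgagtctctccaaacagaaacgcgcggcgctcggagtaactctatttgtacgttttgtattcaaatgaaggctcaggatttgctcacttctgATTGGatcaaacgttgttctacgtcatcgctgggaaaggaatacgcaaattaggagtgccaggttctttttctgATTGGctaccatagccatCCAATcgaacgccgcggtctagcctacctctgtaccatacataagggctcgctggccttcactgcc
HIST4H4, minus strand, GRCh38.p14 chr12:14771132-14771381: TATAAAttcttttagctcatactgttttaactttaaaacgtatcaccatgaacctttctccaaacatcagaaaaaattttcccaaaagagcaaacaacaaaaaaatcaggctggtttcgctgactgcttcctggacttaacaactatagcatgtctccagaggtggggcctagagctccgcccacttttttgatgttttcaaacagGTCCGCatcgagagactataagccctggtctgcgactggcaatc

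HIST2H2AC was not printed because its promoter is the same DNA as that of HIST2H2BE read on the other strand. Within windows of 300 bases (250 before and 50 after the start), 265 bases were shared and the 2 starts lay 236 bp apart. HIST3H2A and HIST3H2BB likewise shared 271 of 300 bases, with starts 230 bp apart. CCAAT was found 3 times in each promoter of both pairs, 4 times at HIST2H2AB and 2 times at HIST3H3, but not at HIST4H4. Of 35116 promoters of the same length, 34.6% held it. TATAAA stood within 30 bases of the start at HIST2H2BE, HIST2H2AC, HIST2H2AB and HIST3H3. It was 250 bases before the start at HIST4H4 and was not found at HIST3H2A and HIST3H2BB, against 11.5% of all promoters with a match anywhere in the window. The octamer was found in each of the 3 HIST2 promoters and in none of the others, against 1.77% of all promoters. GTCCGC was found 44 bases before the start at HIST4H4, and it was also found at HIST2H2BE, 90 bases before the start, and on the other strand of HIST2H2AC (12.8% of all promoters). ACGTCCG (1.33% of all promoters) and the E2F letters TTTCCCGC (1.63%), TTTGGCGC (0.652%) and TTTCGCGC (0.515%) were in none of the 7 windows. A match or its absence describes these letters only and says nothing of binding.

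NPAT was the only factor with significant regions at HIST2 and HIST4H4 sites in both lines. A region was called significant at a deposited p-value under 0.00001 and a deposited fold change above 2. The methods of the study print these limits with the sign of the p-value the other way, which was read here as a misprint. That p compares the ChIP and IgG sequences of 1 region, covers counting error only and is not adjusted for the number of regions. In hTERT-RPE1 cells, 3 of the 8 NPAT regions listed at the sites were significant, against 0.259% of all listed NPAT regions. In U2OS cells the NPAT count was 3 of 5, against 0.108%. CASP8AP2 had 2 significant regions of 4 at the sites in U2OS cells, both at the HIST2 genes, against 0.0927% of its list. In hTERT-RPE1 cells CASP8AP2 had 8 listed regions at the sites and 0 significant ones, and 0.112% of its list was significant. HINFP had 1 significant region of 5 in U2OS cells, at HIST4H4 (background 0.5%), and its 1 listed region in hTERT-RPE1 cells, also at HIST4H4, was not significant (background 0.393%). E2F1 had 7 listed regions at the sites in hTERT-RPE1 and 4 in U2OS cells, of which 0 were significant. In its lists 0.707% and 0.748% of regions were significant, with 1516 and 938 such regions in the genome, so that this factor had more significant regions in each line than any other.

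The strength of a region is given below as the raw ratio, the ChIP sequences plus 1 over the IgG sequences plus 1, with an exact (Clopper-Pearson) 95% interval. The intervals cover counting error only, and sequences that are copies of 1 PCR product are not independent. Where several regions lay at a site, the one with most ChIP sequences stood for it. Of the 40 combinations of site and library, 27 had a listed region and 13 had none, and a combination with none has no value because the lists start at 8 reads at the summit. The ratio was above 2 at 5 of 5 listed sites for CASP8AP2 in hTERT-RPE1 cells (52.9% of all its listed regions were), at 5 of 5 for NPAT (58.2%), at 0 of 1 for HINFP (60.1%) and at 1 of 4 for E2F1 (53.8%). In U2OS cells it was above 2 at 3 of 3 for CASP8AP2 (46.9%), at 3 of 3 for NPAT (55.2%), at 1 of 3 for HINFP (46.7%) and at 0 of 3 for E2F1 (40.4%). With 40.4% to 60.1% of all listed regions above 2, these counts alone are no result about the sites.

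**Figure D1:**
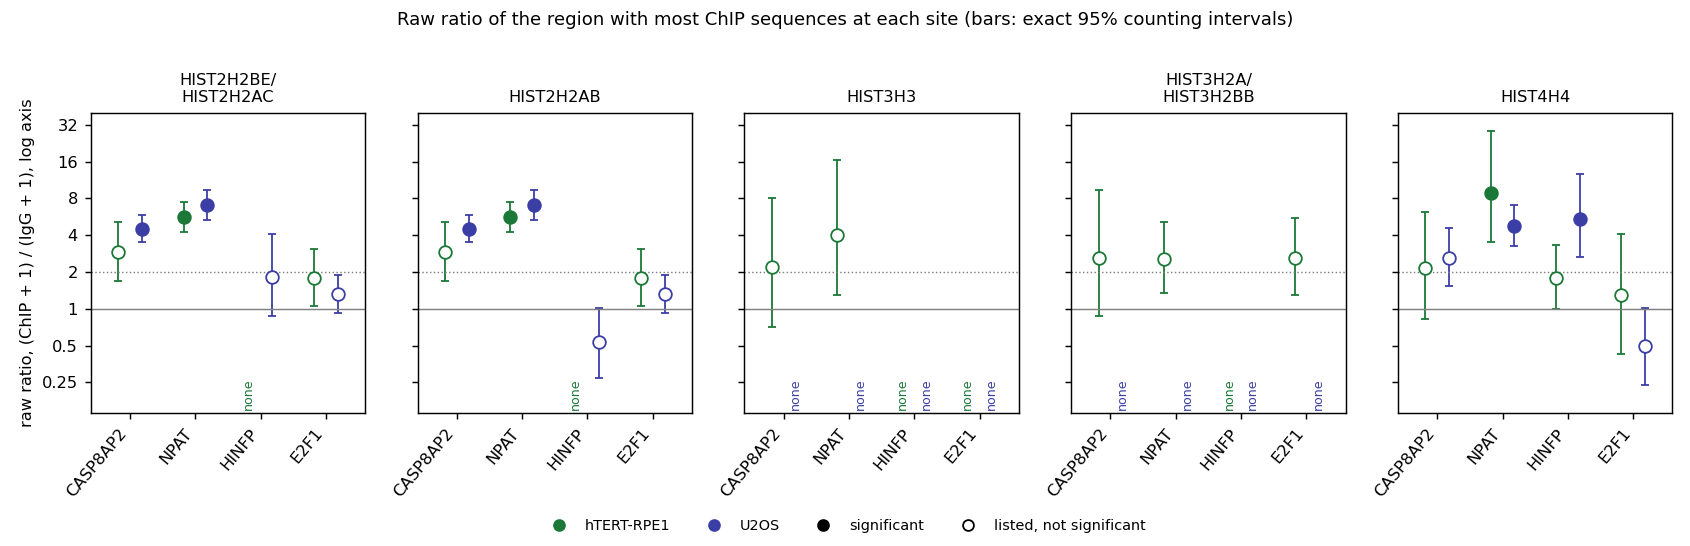
Raw ratio (vertical log axis) of the region with most ChIP sequences at each of the 5 sites, by factor (horizontal axis) and cell line (green, hTERT-RPE1; blue, U2OS), with exact 95% counting intervals as bars. Filled points are significant, open points are listed but not significant, "none" marks a library with no listed region, and the lines mark ratios of 1 and 2. NPAT was at 5.64 and 7.05 at both HIST2 sites and at 8.80 and 4.76 at HIST4H4, and no U2OS library had a value at the HIST3 sites.

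At the HIST2 genes NPAT formed broad regions rich in sequences. The positions of HIST2H2BE/HIST2H2AC and HIST2H2AB are 1090 bp apart, so the same regions were often counted at both and the 2 sites are not independent. In hTERT-RPE1 cells, 343 NPAT and 60 IgG sequences lay in the region from 148124574 to 148127430, a ratio of 5.64 (4.28 to 7.53) with a p-value of 2.5e-45. Its summit was 10 bp from the position of HIST2H2AB. A neighbouring region from 148122768 to 148124511 held 143 NPAT and 25 IgG sequences, a ratio of 5.54 (3.63 to 8.77) and a p-value of 6.03e-20, with its summit 944 bp from the position of HIST2H2BE/HIST2H2AC. Both regions were significant, and their ratios differed by less than their intervals.

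In U2OS cells NPAT had a summit at each HIST2 position. The region from 148122541 to 148125426 held 408 NPAT and 57 IgG sequences, a ratio of 7.05 (5.35 to 9.45) and a p-value of 1.99e-52, with its summit 21 bp from the position of HIST2H2BE/HIST2H2AC. The region from 148125451 to 148127281 held 330 NPAT and 63 IgG sequences, a ratio of 5.17 (3.95 to 6.87) and a p-value of 2.8e-34, with its summit 17 bp from the position of HIST2H2AB. The sums over both regions were 738 NPAT and 120 IgG sequences over 4717 bp in U2OS cells, and 486 and 85 over 4601 bp in hTERT-RPE1 cells. The summed ratios, 6.11 (5.03 to 7.46) and 5.66 (4.49 to 7.21), overlapped widely.

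CASP8AP2 was significant at the HIST2 genes in U2OS cells and not in hTERT-RPE1 cells. In U2OS cells the region from 148124575 to 148127512 held 361 CASP8AP2 and 79 IgG sequences, a ratio of 4.53 (3.54 to 5.84) and a p-value of 2.23e-39, with its summit 140 bp from the position of HIST2H2AB. A second region from 148123375 to 148124568 held 110 and 25 sequences, a ratio of 4.27 (2.77 to 6.82) with p-value 7.99e-13. The hTERT-RPE1 list held 4 shorter regions there. The one nearest to HIST2H2AB held 54 CASP8AP2 and 18 IgG sequences, a ratio of 2.89 (1.69 to 5.17) with a p-value of 3.98e-05. Its summit was 85 bp from the position and 75 bp from the NPAT summit of the same line. This p-value missed the threshold but was 507th in order among 164571 CASP8AP2 regions, and its 23 reads at the summit were more than in 99.9% of them. The other 3 regions held 37, 31 and 20 CASP8AP2 against 15, 17 and 15 IgG sequences, with ratios of 2.38, 1.78 and 1.31.

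HINFP and E2F1 had no significant region at the HIST2 genes. In the hTERT-RPE1 list HINFP had no region there. In U2OS cells it had 3, with 21, 15 and 11 HINFP against 11, 29 and 16 goat IgG sequences and ratios of 1.83, 0.53 and 0.71. E2F1 had 4 regions in hTERT-RPE1 cells, with 40, 26, 13 and 8 sequences and ratios of 1.78, 2.08, 1.40 and 0.75. In U2OS cells it had 3, with 75, 64 and 18 sequences and ratios of 1.31, 2.03 and 1.46. Summed over the window of HIST2H2BE/HIST2H2AC, the E2F1 ratio was 1.60 (1.13 to 2.28) in hTERT-RPE1 and 1.56 (1.21 to 2.03) in U2OS cells. Both intervals lay above 1, but both sums were below the median ratio of all listed E2F1 regions. That median was 2.2 in hTERT-RPE1 and 1.83 in U2OS cells. The lowest E2F1 p-value at any of the sites was 1.12e-04, for the region with 64 E2F1 and 31 IgG sequences in U2OS cells (interval of the ratio 1.31 to 3.21).

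**Figure D2:**
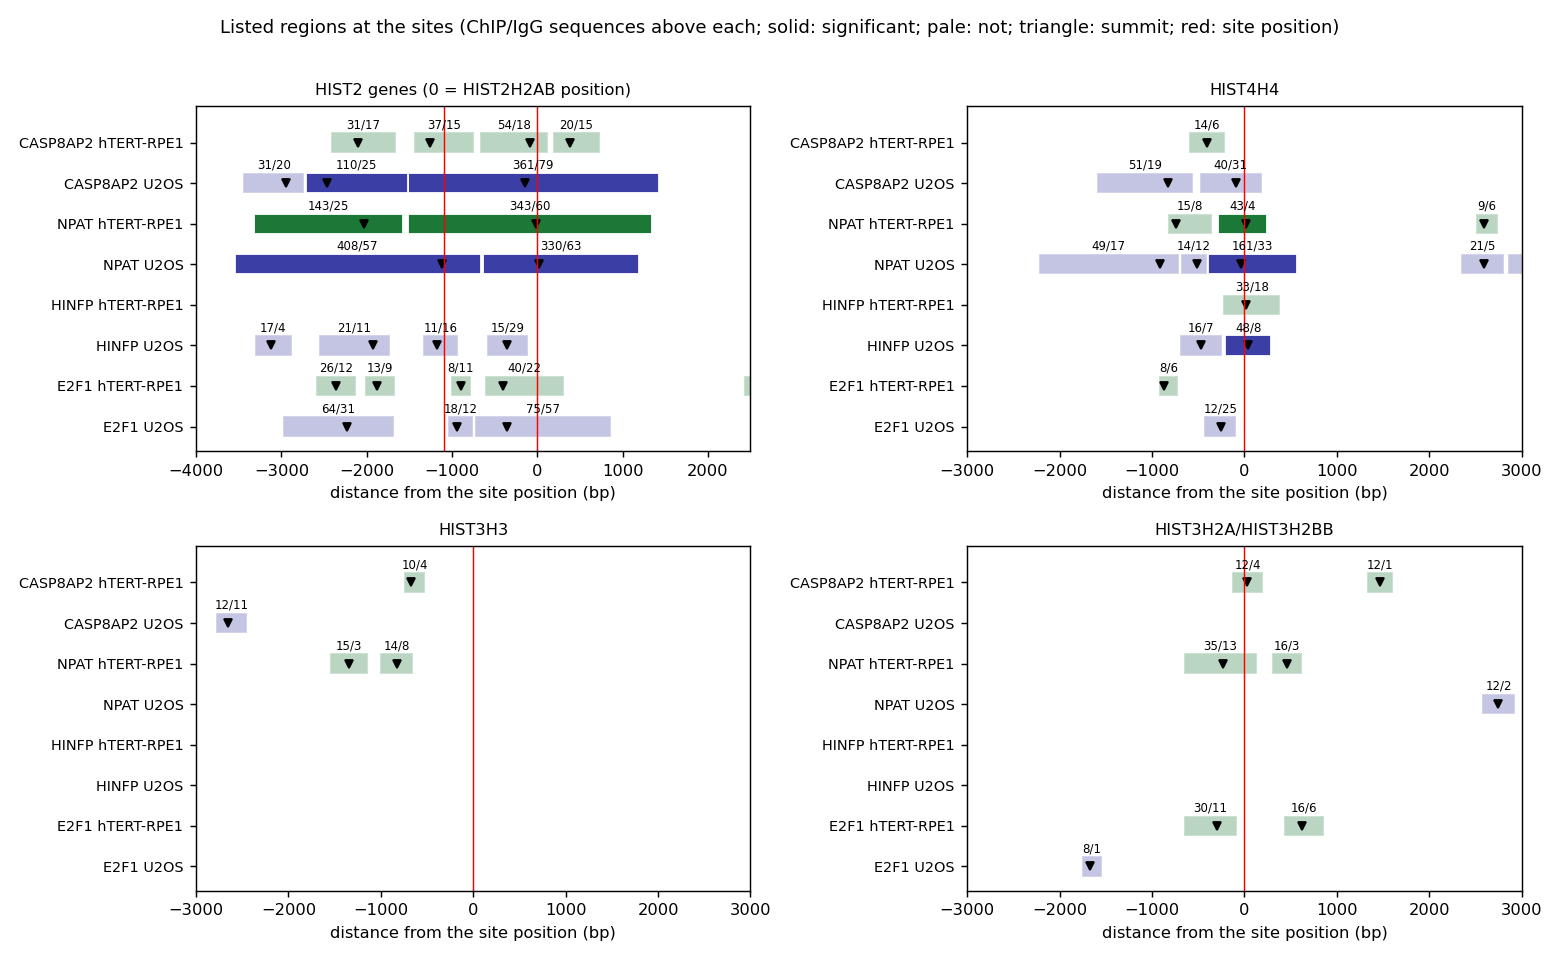
Listed regions of the 8 libraries (rows) along the distance from the site position in bp (horizontal axis), with ChIP/IgG sequences above each region that lies wholly in the frame, summits as triangles and site positions as red lines. Solid bars are significant and pale bars are not. At the HIST2 genes the solid NPAT and CASP8AP2 bars span both positions, at HIST4H4 the solid NPAT and HINFP bars lie over the position, and the HIST3 frames hold only pale bars.

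HIST4H4 encodes histone H4, and its site was the only one with a significant HINFP region. In U2OS cells, 48 HINFP and 8 goat IgG sequences lay from 14815126 to 14815622, a ratio of 5.44 (2.65 to 12.6) and a p-value of 4.89e-10, with the summit 42 bp from the position. In hTERT-RPE1 cells, 33 HINFP and 18 goat IgG sequences lay from 14815103 to 14815720, a ratio of 1.79 (0.99 to 3.32) and a p-value of 0.0184, with the summit 20 bp from the position. The hTERT-RPE1 region was not significant, although its 27 reads at the summit were more than in 99.5% of the regions of its list. Its goat IgG density, 29.1 sequences per kb, was higher than in 91.3% of those regions, against 16.1 per kb and 59.5% in U2OS cells.

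NPAT was significant at HIST4H4 in both lines. In hTERT-RPE1 cells the region from 14815044 to 14815571 held 43 NPAT and 4 IgG sequences, a ratio of 8.80 (3.50 to 28.4) and a p-value of 3.26e-09, with the summit 13 bp from the position. In U2OS cells the region from 14814940 to 14815904 held 161 NPAT and 33 IgG sequences, a ratio of 4.76 (3.28 to 7.12) and a p-value of 1.22e-16, with the summit 34 bp from the position. Between the NPAT and HINFP summits lay 7 bp in the hTERT-RPE1 libraries and 76 bp in those of U2OS. These regions were narrow and peaked: the reads at the NPAT summit were 67.4% of the NPAT sequences in the hTERT-RPE1 region and 69.6% in that of U2OS. At the HIST2 genes the same share was 17.5% and 20.1% for the region with most sequences.

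CASP8AP2 and E2F1 were not significant at HIST4H4. CASP8AP2 had 14 and 6 IgG sequences in hTERT-RPE1 cells, a ratio of 2.14 (0.82 to 6.21). In U2OS cells it had 51 and 19 at 828 bp from the position, a ratio of 2.60 (1.53 to 4.60) with a p-value of 2.37e-04. A second U2OS region, 91 bp from the position, held 40 CASP8AP2 and 31 IgG sequences, a ratio of 1.28 (0.79 to 2.10). E2F1 had 8 and 6 sequences in hTERT-RPE1 and 12 and 25 in U2OS cells, ratios of 1.29 (0.43 to 4.06) and 0.50 (0.24 to 1.01). In U2OS cells the factor called significant beside NPAT was thus HINFP at HIST4H4 and CASP8AP2 at the HIST2 genes. The CASP8AP2 interval of the region 828 bp from HIST4H4, which did not overlap the NPAT region there, overlapped the interval at the HIST2 genes (3.54 to 5.84). That of the nearer region, 0.79 to 2.10, lay below it. With the regions of each window summed, the CASP8AP2 ratio was 1.80 (1.27 to 2.59) at HIST4H4 and 4.50 (3.63 to 5.61) at HIST2H2BE/HIST2H2AC. The HINFP interval at HIST4H4 overlapped that of the region with 21 HINFP sequences at the HIST2 genes (0.87 to 4.06) and lay above that of the region with 15 (0.27 to 1.01).

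The HIST3 sites had no significant region of any factor. At HIST3H3, NPAT had 15 and 3 IgG sequences in hTERT-RPE1 cells at 1344 bp from the position, a ratio of 4.0 (1.29 to 16.4), and 14 and 8 sequences at 824 bp, a ratio of 1.67. CASP8AP2 had 10 and 4 sequences there, a ratio of 2.20 (0.70 to 8.08), and HINFP and E2F1 had no listed region. None of the listed regions at HIST3H3 covered its position.

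At HIST3H2A/HIST3H2BB, the divergent H2A and H2B pair, 3 factors had listed regions in hTERT-RPE1 cells. NPAT had 35 and 13 IgG sequences at 235 bp from the position, a ratio of 2.57 (1.35 to 5.16) with a p-value of 0.00165, and 16 and 3 at 462 bp. E2F1 had 30 and 11 at 295 bp, a ratio of 2.58 (1.29 to 5.52) with a p-value of 0.00255, and 16 and 6 at 619 bp. CASP8AP2 had 12 and 4 sequences at 32 bp, a ratio of 2.60 (0.87 to 9.31), and 12 and 1 at 1466 bp, a ratio of 6.5 (1.47 to 59.3). The main ratios of the 3 factors, 2.57 to 2.60, were alike within their intervals, and the 3 factors share their IgG control. The main NPAT and E2F1 regions had 19 reads each at summits 60 bp apart. That was more than in 99.7% of the listed NPAT regions and 98.7% of the listed E2F1 regions. Their ratios, in contrast, were higher than in only 55.2% of the listed NPAT and 60.2% of the listed E2F1 regions. The CASP8AP2 region at 32 bp had 8 reads at its summit, the lowest height listed. HINFP had no listed region.

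In U2OS cells neither HIST3 site had a listed region within 1.5 kb in any of the 4 libraries. Between 1.5 and 3 kb there were 3, none significant, with 8 E2F1 and 12 NPAT sequences near HIST3H2A/HIST3H2BB and 12 CASP8AP2 sequences near HIST3H3. How often a summit falls in 3 kb by the density of a list alone was counted over windows of chromosome 1, and in hTERT-RPE1 cells it was 25.2% for NPAT, 18.9% for E2F1, 14.9% for CASP8AP2 and 6.04% for HINFP. In the U2OS libraries it was 35.9% for NPAT, 20.1% for CASP8AP2, 9.89% for E2F1 and 3.16% for HINFP. Whether a region is listed at a HIST3 site is read here against these shares. They count summits of any height, so they say nothing of the strength of a listed region. They also average over chromosome 1 and can differ from the density around the sites. Within 100 kb of HIST3H2A/HIST3H2BB, hTERT-RPE1 cells had 36 NPAT, 28 E2F1, 18 CASP8AP2 and 5 HINFP regions listed. In U2OS cells there were 44 NPAT, 22 CASP8AP2, 12 E2F1 and 1 HINFP. No local share per 3 kb was computed.

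Between the lines, 10 ratios could be compared, since each needs a listed region in both. Both HIST2 sites gave the same pair of regions for CASP8AP2, NPAT and E2F1, so these are not 10 separate comparisons. The quotient of the U2OS ratio over the hTERT-RPE1 ratio is given with an exact conditional 95% interval of the 4 counts. It compares 2 libraries, not 2 conditions, and no p-value was computed. The interval left out 1 only for HINFP at HIST4H4, where the quotient was 3.04 (1.14 to 8.53), or 3.55 (1.33 to 9.95) after scaling for the depth of each ChIP library over its IgG. The intervals of the 2 HINFP ratios themselves overlapped. With the second U2OS region at this site added, the quotient was 2.27 (0.96 to 5.36), or 2.65 (1.12 to 6.26) after the same scaling. For NPAT the quotient was 1.25 (0.83 to 1.88) at the HIST2 genes and 0.54 (0.16 to 1.51) at HIST4H4. For E2F1 it was 0.74 (0.38 to 1.42) and 0.39 (0.099 to 1.5). Some of these regions differed in place between the lines. The NPAT regions compared at the HIST2 genes had summits 1101 bp apart. The hTERT-RPE1 summit was near HIST2H2AB and the U2OS summit near HIST2H2BE/HIST2H2AC. The E2F1 regions at HIST4H4 had summits 615 bp apart and did not overlap. Between the regions nearest to a position, the direction turned for NPAT at HIST2H2AB, 0.92 (0.61 to 1.37), and for E2F1 at HIST2H2BE/HIST2H2AC, 1.95 (0.56 to 6.90).

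For CASP8AP2 at the HIST2 genes the quotient was 1.56 (0.83 to 2.85) between the regions with most sequences. Over all regions within 1.5 kb of the HIST2H2BE/HIST2H2AC position, 471 CASP8AP2 and 104 IgG sequences over 4132 bp in U2OS cells stood against 142 and 65 over 2817 bp in hTERT-RPE1 cells. The summed ratios were 4.50 (3.63 to 5.61) and 2.17 (1.61 to 2.95), and their quotient was 2.07 (1.42 to 3.02). The mean density was 114 CASP8AP2 and 25.2 IgG sequences per kb in U2OS cells, against 50.4 and 23.1 per kb in hTERT-RPE1 cells. These densities are not scaled for the total reads of each library, which are unknown, and cover stretches called separately in each line. At HIST4H4 the CASP8AP2 quotient was 1.21 (0.36 to 3.75). It fell to 0.60 (0.18 to 1.80) between the regions nearest to the position. The number of copies of these loci in U2OS cells was not measured here.

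The histone gene cluster of chromosome 6, read as the significant regions between 26 and 28 Mb, was used as the class for comparison. NPAT had 27 such regions in hTERT-RPE1 cells, with a median of 218 NPAT sequences and a median ratio of 8.0 (range 3.06 to 18.7). In U2OS cells it had 25, with medians of 146 sequences and 7.47 (3.43 to 24.0). The HIST2 region with most sequences had a high count among them in both lines. Its ratio was in the lower part in hTERT-RPE1 cells and near the median in U2OS cells. In hTERT-RPE1 cells, 8 of the 27 regions had more than the 343 NPAT sequences of the HIST2 region and 23 had a higher ratio than 5.64. In U2OS cells 7 of 25 had more than 408 sequences and 14 had a ratio above 7.05. At HIST4H4 the order was the other way round in hTERT-RPE1 cells, where 24 of 27 regions had more than 43 sequences and 9 had a ratio above 8.80. In U2OS cells 12 of 25 had more than its 161 sequences and 22 had a ratio above 4.76.

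The CASP8AP2 region at the HIST2 genes in U2OS cells, with 361 sequences, had more CASP8AP2 sequences than each of the 19 significant CASP8AP2 regions of the chromosome 6 stretch, where the highest count was 349. Its ratio of 4.53 was under that of 13 of them. Of the 19, 2 were longer and 4 had more reads at the summit. The 14 significant CASP8AP2 regions of that stretch in hTERT-RPE1 cells had ratios from 2.85 to 6.05, a range that the 2.89 of the largest HIST2 region there enters at its low end, and counts from 51 to 160, against 54. For HINFP, 6 of the 8 chromosome 6 regions in U2OS cells had more than the 48 sequences at HIST4H4 and 7 had a ratio above 5.44.

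**Figure D3:**
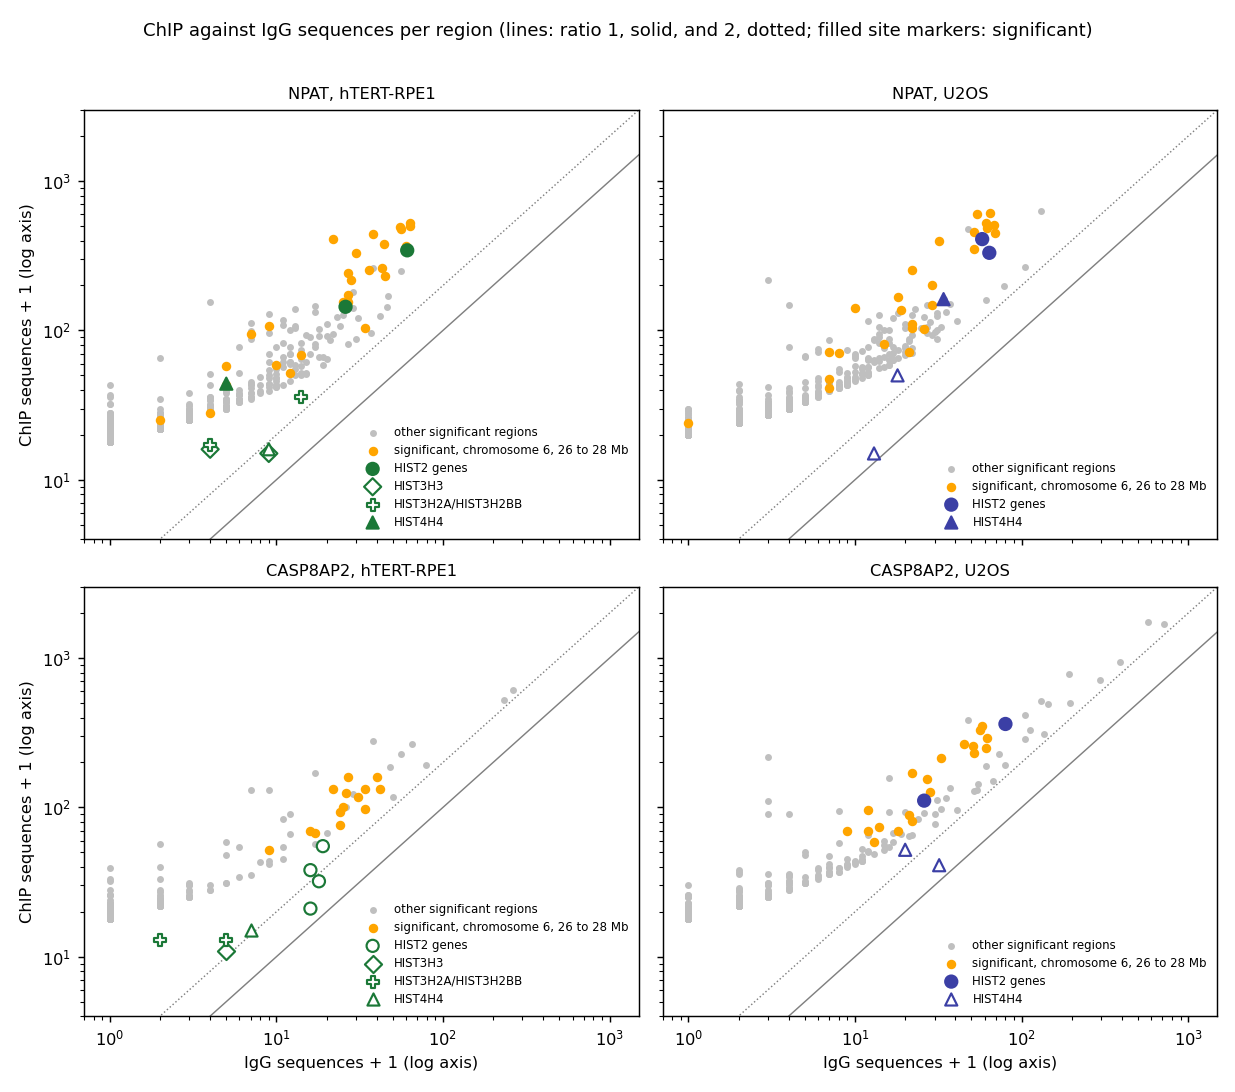
ChIP sequences plus 1 (vertical log axis) against IgG sequences plus 1 (horizontal log axis) for NPAT (top) and CASP8AP2 (bottom) in hTERT-RPE1 (left) and U2OS cells (right). Grey points are significant regions, orange points those on chromosome 6 between 26 and 28 Mb, and larger symbols the regions at the sites, filled where significant, with lines at ratios of 1 (solid) and 2 (dotted). In each frame with filled HIST2 symbols the upper of them stands among the points with most sequences, and the HIST3 symbols stay at 35 ChIP sequences or fewer.

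The significant regions of the 8 libraries merged into 3734 loci. The HIST2 locus was significant for NPAT in both lines and for CASP8AP2 in U2OS cells only, and 3 other loci had the same set of libraries. All 3 were on chromosome 6, at 27222412 to 27224009, 26304422 to 26308949 and 27890521 to 27892139. The set at HIST4H4, NPAT in both lines with HINFP in U2OS cells, was found at 0 other loci. Of the 86 loci with NPAT in both lines, 27 also had CASP8AP2 in both, 7 in U2OS cells only, 1 in hTERT-RPE1 cells only and 51 in neither. Only 17 of the 86 lay on chromosome 6 between 26 and 28 Mb, in that order 10, 5, 0 and 2 of these sets. Sets of libraries depend on the threshold, since a region just short of it is counted as missing.

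**Figure D4:**
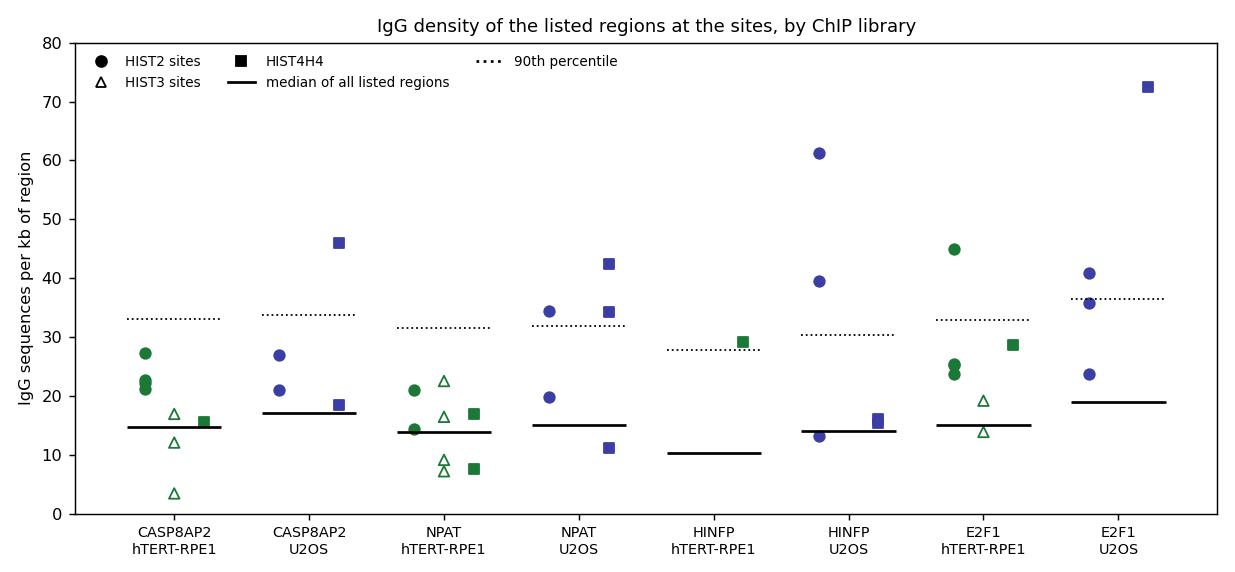
IgG sequences per kb of region (vertical axis) of each listed region at the sites, by ChIP library (horizontal axis). Filled circles are HIST2 regions, open triangles HIST3 regions and squares HIST4H4 regions, and the solid and dotted lines are the median and the 90th percentile of all listed regions of the library. At HIST4H4 in U2OS cells the E2F1 region is at 72.5 per kb, while the HIST3 regions lie between 3.45 and 22.5 per kb.

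The IgG sequences are the denominator of each ratio, so a high IgG level lowers the ratio by construction. At HIST4H4 in U2OS cells the rabbit IgG density was 34.2 per kb in the NPAT region, above that of 92.8% of the listed NPAT regions. It was 46.0 per kb in the nearer CASP8AP2 region (above 97.6%) and 72.5 per kb in the E2F1 region (above 99.8%), the 2 regions with ratios of 1.28 and 0.50. The NPAT region at HIST4H4 in hTERT-RPE1 cells, with the highest ratio of all, 8.80, had 7.58 IgG sequences per kb, above that of 25.4% of its list. At the HIST2 genes in U2OS cells, the NPAT region nearest to HIST2H2AB had 34.4 per kb (above 92.9%) and a ratio of 5.17. The largest E2F1 region there had 35.8 per kb (above 89.3%) and a ratio of 1.31. The NPAT, CASP8AP2 and E2F1 regions named here at HIST4H4 in U2OS cells overlap and share 1 rabbit IgG control, so their densities are not separate observations. The part of the IgG level in the ratios was not tested. How reads that match several near-identical histone genes were mapped is not given, so that counts at HIST2 genes with close copies are uncertain to that extent.

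Within 100 kb of the sites a single further locus was significant, for NPAT in hTERT-RPE1 cells, from 148083088 to 148083887, 41549 bp from the position of HIST2H2BE/HIST2H2AC. It held 30 NPAT and 4 IgG sequences, a ratio of 6.20 with a p-value of 4.66e-06. In U2OS cells 18 and 13 NPAT sequences against 4 and 3 IgG sequences were listed there, not significant. Which gene lies there was not analysed here. No further significant region lay within 100 kb of the HIST3 sites or of HIST4H4.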

How the data were processed

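ChIP DNA was sonicated to fragments of 200 to 400 bp, sequenced on an Illumina Genome Analyzer or HiSeq2000 and mapped to NCBI36 (hg18, per the labels). The aligner, the peak caller and the handling of duplicate reads are not given in the sources used here. The lists deposited by the authors, 1 per ChIP library, hold counts of ChIP and IgG sequences per region as whole numbers. The deposited height is a signal, the reads at the summit, of at least 8. The deposited fold change is a ratio, the counts plus 1 divided, times 1 constant per library (0.815 to 1.17). The deposited p-value compares both counts. The IgG libraries were used only through these counts, and total reads per library are unknown.

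From the lists, regions were taken by summit distance and given raw ratios with exact intervals, as described with the values. The members, lists and comparisons were chosen with earlier results of these data known. All 7 genes at all 5 sites are named, whatever their values, and like loci were named by the highest NPAT count. Alternatives were other p, fold and distance limits, 0.5 or nothing added to the counts, depth scaling, the nearest summit, summed regions and other definitions of overlap. The selection and interval code was tested on simulated regions. Scripts ran in Python 3.11.15 with scipy 1.17.1 for the intervals, pandas 2.3.3 and numpy 2.4.6 for tables and matplotlib 3.10.9 for plots.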

Additional observations from a re-analysis of the deposited data

Results flagged for a closer look

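Without depth scaling, the quotient of the U2OS over the hTERT-RPE1 ratio differed from 1 beyond its 95% counting interval in 3 places, and 2 of them share regions. For HINFP at HIST4H4 it was 3.04 between the regions with most sequences. For CASP8AP2, with all regions within 1.5 kb summed, it was 2.07 at HIST2H2BE/HIST2H2AC and 1.98 at HIST2H2AB. The summed regions were called separately in each line and cover different lengths, 4132 bp in U2OS against 2817 bp in hTERT-RPE1 cells at the first position and 2938 against 2051 bp at the second. Between the CASP8AP2 regions with most sequences the quotient was 1.56 (0.83 to 2.85), an interval that includes 1. With 1 library per line these differences were not tested between cell lines, and a difference between lines and one between precipitations cannot be told apart.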

How the results depend on the processing

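The number of sites with a significant region changed with the threshold. With p under 0.001, CASP8AP2 in hTERT-RPE1 cells had 2 sites in place of 0 and E2F1 in U2OS cells 1 in place of 0. CASP8AP2 in U2OS cells had 3 in place of 2, the added site being HIST4H4. At that limit CASP8AP2 was thus called at both the HIST2 and HIST4H4 sites in U2OS cells. With a fold change above 5, CASP8AP2 in U2OS cells had 0 in place of 2, and with p under 1e-10, HINFP in U2OS cells had 0 in place of 1. With no threshold CASP8AP2 and NPAT in hTERT-RPE1 cells had 5 sites each, HINFP 1 and E2F1 4. In U2OS cells CASP8AP2, NPAT, HINFP and E2F1 then had 3 each. With summits within 500 bp, or with the HIST2 positions counted as 1 site (added after the data were seen), CASP8AP2 in U2OS cells had 1. NPAT had 2 or 3 sites in each line under the other limits on p, fold and distance.

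The ratio was higher in U2OS cells at 3 of 3 CASP8AP2 sites, 2 of 3 NPAT sites, 1 of 1 HINFP site and 0 of 3 E2F1 sites. Both HIST2 sites held the same pair of regions for CASP8AP2, NPAT and E2F1, so that pair was counted 2 times. The share of all listed regions with a higher ratio in U2OS cells is not given. These counts alone are therefore no result about the sites. By the nearest summit NPAT had 1, E2F1 had 1 and CASP8AP2 had 2, and CASP8AP2 also had 2 with summed regions. Counting only sites whose ratio intervals do not overlap gave 0 for CASP8AP2, NPAT and HINFP. Significant CASP8AP2 and NPAT regions overlapped at 0 sites in hTERT-RPE1 cells, or 5 with any listed region. In U2OS cells they overlapped at 2 sites, 3 with any listed region and 1 with the HIST2 positions as 1 site. The share of all listed CASP8AP2 regions that overlap an NPAT region is not given. The counts with any listed region are therefore no result about the sites. Of 184 other values of single ratios, 174 stayed within the counting interval, 10 moved out of it and 6 of these crossed 1, none of them at a significant region. At HIST2H2BE/HIST2H2AC, E2F1 in hTERT-RPE1 cells went from 1.78 to 0.75 by the nearest summit or within 500 bp. HINFP in U2OS cells went from 1.83 to 0.71 there under the same settings and to 0.84 when summed, and from 0.53 to 1.83 at HIST2H2AB within 3000 bp. No paired analysis was possible because each factor has 1 library per line.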
